A study of Mus musculus with 12 samples.

Results

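Potassium channel genes of the mouse kidney were compared between day 8 and day 0 after birth. They are the 92 protein-coding genes whose symbol starts with Kcn, out of 32692 genes listed for the series. In all, 98 listed symbols start with Kcn. Of these, 5 are antisense RNAs, and 1 more gene of the Kcnj family is left out by the rule that defines the set. Members were sorted by name into 34 voltage-gated pore subunits (Kcna to Kcnh, with Kcns and Kcnv), 14 inward rectifiers (Kcnj), 14 two-pore-domain channels (Kcnk), 5 Kcnq channels, 8 channels opened by calcium or sodium or close to them in sequence (Kcnma, Kcnn, Kcnt, Kcnu; here Kcnm/Kcnn) and 17 accessory subunits (Kcnab, Kcne, Kcnip, Kcnmb, Kcnrg).

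RNA-seq had been made from whole kidneys of untreated wild-type (WT) mice. The groups are day 8 (5 libraries used here, of 6 labelled) and day 0 (6 libraries). The labels state no sex, litter or batch, and nothing says that each library is a separate animal, so a p-value here speaks of the spread among libraries, which may be technical. The series set out to find which transcripts differ between the ages in the newborn period.

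Potassium channels let potassium ions leave the cell and so set the membrane voltage. In the kidney tubule, inward rectifiers and two-pore-domain channels of the basolateral membrane recycle the potassium that the sodium pump brings in, and the voltage they make drives salt, glucose and bicarbonate transport. Channels of vessel walls and nerves shape contraction and firing. Most pores are tetramers or dimers, and small accessory subunits decide how they open.

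The data are estimated counts per gene and TPM, which corrects for transcript length and library total and is the scale used here to compare genes with each other. CPM, the TMM-scaled count relative to the library total, is used to compare the ages for the same gene. Library totals ran between 18222170 and 24428652 estimated counts. Marker sums in TPM of the tubule lists were higher at day 8: 1670 to 2190 against 507 to 823 for proximal tubule, 849 to 1190 against 292 to 368 for thick ascending limb, 279 to 402 against 80.9 to 106 for distal convoluted tubule, and 111 to 144 against 48.5 to 77.0 for intercalated cells. The sums of endothelial markers were 353 to 427 at day 8 and 212 to 262 at day 0, those of macrophage markers 26.3 to 29.4 and 17.4 to 24.4, and those of T cell markers 5.69 to 12.8 and 0.674 to 2.29. Podocyte markers stood at 225 to 273 TPM at day 8 and 167 to 222 at day 0. Principal cell markers stood at 186 to 281 and 152 to 245, red blood cell markers at 24.1 to 76.0 and 32.9 to 101, glial markers at 2.53 to 4.31 and 2.08 to 4.04, and adrenal cortex markers at 0.756 to 1.30 and 0.925 to 2.09 TPM, with the ages overlapping in each. Skeletal muscle markers stood at 0.998 to 2.55 TPM at day 8, with Myh8 at 0 in all 5 libraries, and at 2.68 to 17.98 TPM at day 0. Fat markers reached 70.4, 45.8 and 26.0 TPM in day 8 libraries 3, 4 and 5, against 5.85 and 4.34 TPM in day 8 libraries 1 and 2 and at most 1.94 TPM at day 0. In such bulk tissue, fewer cells of a type and less RNA per cell cannot be told apart.

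Together the members took 2.14 times as much of the kidney transcriptome at day 8. Their summed TPM was 658.5 ± 71.4 at day 8 (SD, n = 5) and 308.0 ± 25.6 at day 0 (SD, n = 6). Just 3 genes, Kcnj10, Kcnj15 and Kcnj16, made up 64.2 ± 1.66% of it at day 8 and 49.3 ± 2.51% at day 0. Without them the summed TPM was 235.3 ± 19.7 at day 8 and 155.7 ± 8.39 at day 0 (1.51 times as much at day 8). By class, the Kcnj share was 66.5 ± 1.58% at day 8 and 54.3 ± 2.40% at day 0, and every day 8 library lay above every day 0 library. The shares of voltage-gated subunits (12.4 ± 0.917% and 16.8 ± 1.27%), accessory subunits (8.23 ± 0.353% and 10.9 ± 1.08%), Kcnm/Kcnn (2.99 ± 0.535% and 5.87 ± 0.401%) and Kcnq (2.02 ± 0.0784% and 2.87 ± 0.242%) were lower at day 8. The Kcnk share was 7.84 ± 0.855% at day 8 and 9.26 ± 0.669% at day 0, with overlapping ages. In mean summed TPM, however, no class was lower at day 8. The ratio of the day 8 mean to the day 0 mean was 2.62 for Kcnj, 1.80 for Kcnk and 1.62 for accessory subunits. It was 1.58 for voltage-gated subunits, 1.51 for Kcnq and 1.09 for Kcnm/Kcnn. The Kcnm/Kcnn sums overlapped, at 14.6 to 24.0 TPM at day 8 and 16.5 to 21.0 TPM at day 0. TPM ratios include a shift over all genes. Among genes with a mean of at least 1 TPM, the median log2 fold change on log2(TPM + 1) was 0.13.

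**Figure D1:**
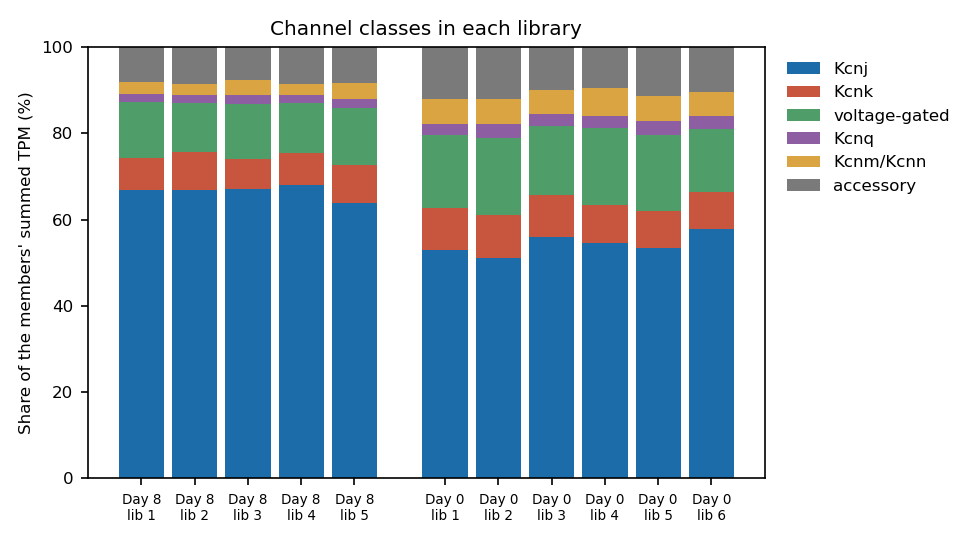
Share of the 92 members' summed TPM (y axis, %) taken by each channel class in each of the 11 libraries (x axis, day 8 libraries left). The Kcnj part covers 63.8 to 68.0% in the day 8 libraries and 51.1 to 57.9% in the day 0 libraries.

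Most members were scarce. A mean of at least 10 TPM was reached by 8 members at day 8 and by 5 at day 0, and a mean of at least 1 TPM by 41 and 42. The order at the top was Kcnj16, Kcnj15, Kcnj10, Kcnd3, Kcnk1 and Kcne1l at both ages. Kcnj16 averaged 247.8 ± 43.2 TPM at day 8 and 84.7 ± 8.47 TPM at day 0, and Kcnj15 averaged 137.8 ± 12.6 and 50.1 ± 12.6 TPM. Below them, Kcnj10 (37.6 ± 4.38 TPM) and Kcnd3 (30.8 ± 4.29 TPM) overlapped at day 8, as did Kcnd3 and Kcnk1 (24.0 ± 3.18 TPM), Kcnk1 and Kcne1l (19.9 ± 2.35 TPM), and Kcne1l and Kcnk5 (18.03 ± 1.98 TPM). At day 0 the next after Kcne1l (8.85 ± 1.60 TPM) was Kcnj8 (8.20 ± 1.21 TPM), which at day 8 took place 13 with 5.69 ± 0.717 TPM.

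**Figure D2:**
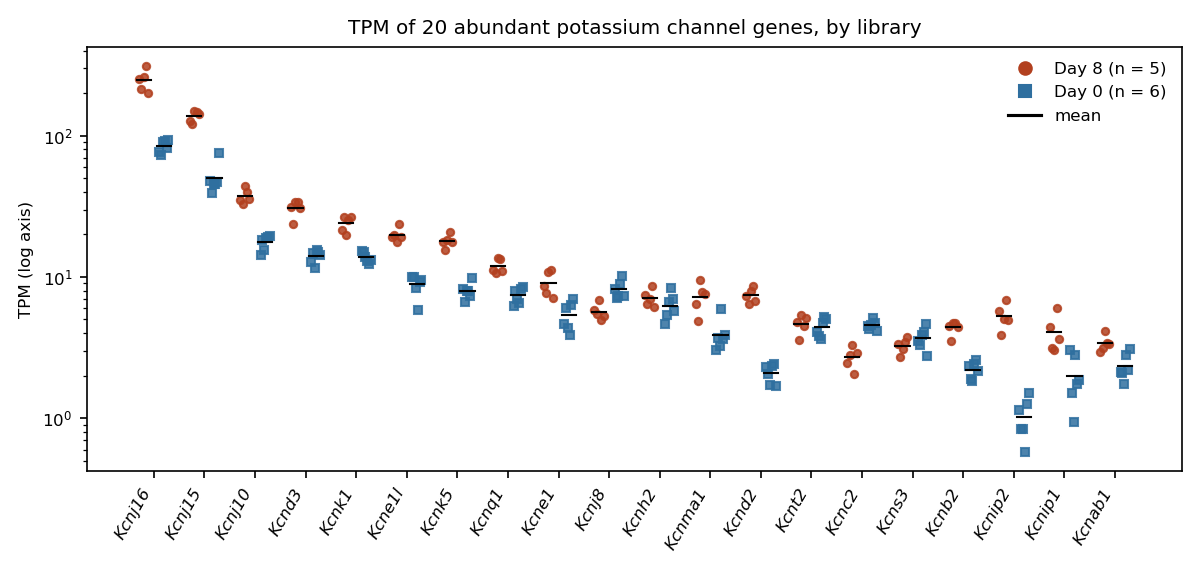
TPM in each library (y axis, log scale) of 20 members with a high mean TPM over both ages (x axis), day 8 as circles left of day 0 as squares, black lines for means. Kcnj16 and Kcnj15 stand above every other member in all 11 libraries, and Kcnj8, Kcnc2 and Kcns3 have lower means at day 8.

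Of the 92 members, 67 had enough counts for the test and 25 did not. In edgeR's quasi-likelihood test, with p-values adjusted over all 18763 genes tested and a call at an adjusted p under 0.05, 29 members rose at day 8 (43.3% of those tested, against 27.5% of all tested genes) and 15 fell (22.4%, against 30.1% of all tested genes), while 23 were not called. The median log2 fold change was 0.18 over the tested members and -0.01 over all tested genes. CPM ranges of the ages lay apart for 34 members (50.7%, against 40.5% of all tested genes), 21 of them higher and 13 lower at day 8. A rise of at least 2-fold was called for 9 members (13.4% of those tested, against 4.83% of all tested genes), which were Kcnj13, Kcnj15, Kcnj16, Kcnk5, Kcnd2, Kcnv2, Kcnq3, Kcnt1 and Kcnip2. A fall of at least 2-fold was called for 7 members (10.4%, against 5.81% of all tested genes), which were Kcnk10, Kcnh7, Kcnq5, Kcnn1, Kcnn4, Kcnmb2 and Kcnmb4. The filter on low counts, the same for all genes, let a gene enter through 1 age alone. Kcnk10 entered through day 0 and Kcnj13 through day 8, so both counts include members scarce at the other age. In the other scale, limma on log2(TPM + 1) over genes with a mean of at least 1 TPM, 42 members were tested, 23 rose (32.3% of all tested genes did) and 5 fell (14.7% of all tested genes did). There the median of all genes was 0.13 on the log2 scale, so the higher calls include that shift. Members that rose had a median of 3.16 TPM over both ages, against 1.21 TPM for those that fell.

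**Figure D3:**
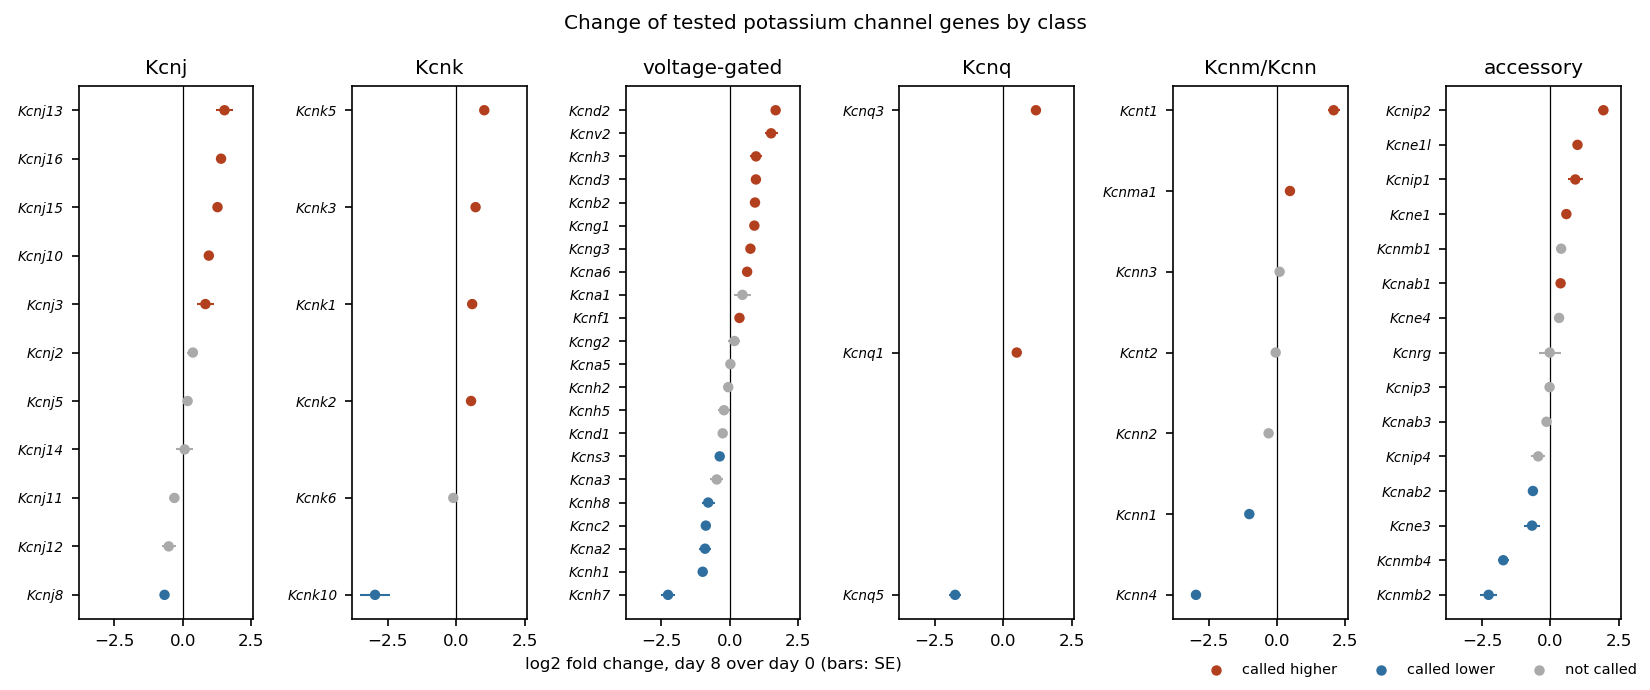
Log2 fold change of day 8 over day 0 (x axis; bars, SE) for 64 of the 67 tested members (y axis) by class, red for called higher, blue for called lower, grey for not called. Each class holds genes that rose and genes that fell, from 2.08 (Kcnt1) down to -2.97 (Kcnk10).

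Among inward rectifiers, Kcnj3, Kcnj10, Kcnj13, Kcnj15 and Kcnj16 rose and Kcnj8 fell. Of 14 members, 11 were tested, 5 rose (45.5%, against 27.5% of all tested genes), 1 fell (9.09%, against 30.1%) and 5 were not called. The median log2 fold change of those tested was 0.37. Kcnj16 (chromosome 11, 110968033 to 111027968, + strand; GENCODE vM21 on GRCm38, as for the other positions) encodes Kir5.1, which opens only together with a partner such as Kir4.1. Its levels in the day 8 libraries were 704, 678, 669, 833 and 552 CPM, against a lowest of 235, a median of 259.5 and a highest of 293 CPM at day 0. The ages lay far apart, with a log2 fold change of 1.41 ± 0.0862 (SE, edgeR adjusted p = 9.38e-09). Kcnj15 (chromosome 16, 95257558 to 95300260, + strand) encodes Kir4.2, a channel of the proximal tubule. It stood at 445, 503, 487, 514 and 492.8 CPM in the day 8 libraries and at 167 (lowest), 189 (median) and 282 CPM (highest) at day 0, a log2 fold change of 1.28 ± 0.125 (SE, edgeR adjusted p = 5.04e-06). Every day 8 library was above the highest day 0 library, which was library 6. Kcnj10 (chromosome 1, 172341210 to 172374085, + strand) encodes Kir4.1, the partner of Kir5.1 in the distal convoluted tubule and a sensor of blood potassium there. Its day 8 levels were 147, 158, 171, 164 and 148 CPM, against 71.8 (lowest), 82.3 (median) and 91.8 CPM (highest) at day 0, with no overlap (log2 fold change 0.96 ± 0.0595, SE, edgeR adjusted p = 2.11e-09). The log2 fold change of Kcnj10 was the smaller of the pair, a difference that was not tested. The TPM ratio of Kcnj16 to Kcnj10 was 5.64 to 7.71 in day 8 libraries and 4.01 to 5.83 in day 0 libraries, ranges that overlap slightly. Beside these rises, proximal tubule markers (3 of 4 called higher) and distal convoluted tubule markers (2 of 2 called higher) moved the same way, and their part in the result was not tested.

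The promoters of these 3 genes are shown because the genes rose together and lead the class. Each window, from RefSeq on GRCm38.p6, holds 250 bases before and 50 after an annotated start. Capitals mark the letters TATAAA, as found in a TATA box, or GTTAAT, as found in the core of an HNF1 motif. Each was searched on both strands and at any distance from the start, so a match need not be a working site. The capitals show the gene's strand, so a match on the opposite strand reads as the reverse complement of the letters searched. No capitals of the windows shown belong to both motifs. Kcnj16 has 4 annotated starts, and gene counts do not say which was used. The first and the third are printed because each holds a match, and the windows of the second and the fourth hold neither motif.
Kcnj10 (chr1:172340960-172341259, + strand): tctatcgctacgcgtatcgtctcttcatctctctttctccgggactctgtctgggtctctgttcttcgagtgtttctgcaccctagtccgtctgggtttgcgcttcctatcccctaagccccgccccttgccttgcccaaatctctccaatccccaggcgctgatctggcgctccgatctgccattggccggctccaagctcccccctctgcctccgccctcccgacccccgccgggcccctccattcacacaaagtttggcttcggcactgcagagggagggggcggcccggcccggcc
Kcnj15 (chr16:95257308-95257607, + strand): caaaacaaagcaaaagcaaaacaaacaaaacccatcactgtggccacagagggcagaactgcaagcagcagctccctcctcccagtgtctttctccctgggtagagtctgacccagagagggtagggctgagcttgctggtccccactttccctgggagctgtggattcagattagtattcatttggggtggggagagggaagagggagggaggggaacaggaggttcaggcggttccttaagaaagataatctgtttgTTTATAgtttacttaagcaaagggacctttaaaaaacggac
Kcnj16 start 1 (chr11:110967783-110968082, + strand): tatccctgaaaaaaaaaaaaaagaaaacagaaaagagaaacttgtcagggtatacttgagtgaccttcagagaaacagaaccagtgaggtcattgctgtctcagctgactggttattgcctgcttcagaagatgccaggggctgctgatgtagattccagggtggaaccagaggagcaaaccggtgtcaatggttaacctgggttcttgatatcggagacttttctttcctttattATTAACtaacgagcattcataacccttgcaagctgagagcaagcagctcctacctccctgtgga
Kcnj16 start 3 (chr11:111019335-111019634, + strand): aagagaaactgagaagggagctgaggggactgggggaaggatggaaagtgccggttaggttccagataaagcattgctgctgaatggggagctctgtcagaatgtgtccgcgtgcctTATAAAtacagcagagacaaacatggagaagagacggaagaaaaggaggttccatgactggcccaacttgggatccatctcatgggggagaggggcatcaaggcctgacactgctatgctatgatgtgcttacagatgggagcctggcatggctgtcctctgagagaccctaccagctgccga
The Kcnj10 window holds 21 CpG and 63.7% G or C and neither motif. The Kcnj15 window has 2 CpG, 49.7% G or C and the TATA letters on the opposite strand, after the annotated start. The window of the first Kcnj16 start has 3 CpG and the HNF1 letters on the opposite strand. That of the third has 5 CpG and the TATA letters on the gene's strand, well before the annotated start. Of all 32851 RefSeq windows of this length, 13.6% hold TATAAA and 7.10% hold GTTAAT, and the median window has 7 CpG. Among the 92 windows of the 67 members that matched, 5 hold TATAAA (of Kcnab1, Kcnj9, Kcnj13, Kcnj15 and Kcnj16) and 4 hold GTTAAT (of Kcnab1, Kcne2, Kcnj16 and Kcns3). These are letter matches only.

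Kcnj13, which encodes Kir7.1, an epithelial channel, was scarce but higher at day 8: 1.29, 1.08, 1.23, 1.17 and 1.05 CPM in the day 8 libraries and 0.0539 (lowest), 0.425 (median) and 0.727 CPM (highest) at day 0. The ages did not overlap (log2 fold change 1.53 ± 0.322, SE, edgeR adjusted p = 0.000741). Its exons overlap those of Gigyf2 on the opposite strand (means of 133 CPM at day 8, 127 CPM at day 0), and whether counting used the strand is not stated. Kcnj3, a G-protein-gated channel of heart and brain, was called higher with overlapping ages (log2 fold change 0.83 ± 0.319, SE, edgeR adjusted p = 0.0354). The call was lost when day 8 library 2, 3 or 4 or day 0 library 1, 2 or 6 was left out (edgeR adjusted p between 0.0512 and 0.09). It was also lost without the 3 day 8 libraries high in fat markers (log2 fold change 0.84, edgeR adjusted p = 0.165). That fit keeps only day 8 libraries 1 and 2, so a call can be lost there with little change in fold. Kcnj2 (Kir2.1, log2 fold change 0.37 ± 0.201, SE, edgeR adjusted p = 0.133), whose gene starts 38.2 kb after the end of Kcnj16 on chromosome 11, was not called. Nor were Kcnj5, Kcnj11, Kcnj12 and Kcnj14.

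Kcnj8, the Kir6.1 pore of the ATP-sensitive channel of vessel walls, fell. Its day 8 levels were 10.65, 11.6, 11.6, 8.67 and 9.66 CPM, against 13.6 (lowest), 16.4 (median) and 18.6 CPM (highest) at day 0. All day 8 libraries were below all day 0 libraries (log2 fold change -0.66 ± 0.0962, SE, edgeR adjusted p = 2.44e-05). Its regulatory partner Abcc9 (SUR2) fell too, at 30.4, 39.8, 35.3, 28.7 and 41.4 CPM in the day 8 libraries and 49.2 to 81.6 CPM at day 0 (log2 fold change -1.002 ± 0.139, SE, edgeR adjusted p = 7.29e-05). The ages of Abcc9 lay apart. The other sulphonylurea receptor, Abcc8 (SUR1), was also lower (log2 fold change -0.96 ± 0.239, SE, edgeR adjusted p = 0.00274), while its pore Kcnj11 (Kir6.2) averaged 1.17 ± 0.213 CPM at day 8 and 1.44 ± 0.226 CPM at day 0 and was not called (edgeR adjusted p = 0.172). The TPM ratio of Kcnj8 to Abcc9 was 0.589 to 0.919 at day 8 and 0.575 to 0.891 at day 0. Smooth muscle and mural markers did not move in 1 direction: 2 of 6 were called higher and 3 lower, with summed TPM of 402 to 486 at day 8 and 366 to 440 at day 0, and their part in the result was not tested.

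Two-pore-domain channels, which carry background potassium current, were mostly absent from the test: 6 of 14 members had enough counts. Of those, 4 rose (66.7%, against 27.5% of all tested genes), 1 fell (16.7%, against 30.1%) and 1, Kcnk6 (TWIK2), was not called. The median log2 fold change of those tested was 0.56. Kcnk5 (chromosome 14, 20140057 to 20181809, - strand) encodes TASK2, an alkali-activated channel of the proximal tubule that takes part in bicarbonate recovery. It stood at 44.5, 45.1, 43.3, 52.0 and 44.4 CPM in the day 8 libraries and at 19.4 (lowest), 22.3 (median) and 25.3 CPM (highest) at day 0. The ages were well apart (log2 fold change 1.03 ± 0.0760, SE, edgeR adjusted p = 1.49e-08). Kcnk1 (TWIK1), the class member with the highest TPM, was at 31.4, 44.2, 27.4, 36.0 and 38.3 CPM at day 8 and 19.7 (lowest), 22.8 (median) and 27.9 CPM (highest) at day 0. Its ages overlapped at day 8 library 3 (log2 fold change 0.59 ± 0.132, SE, edgeR adjusted p = 0.00215). Kcnk2 (TREK1), a channel opened by stretch, rose with a log2 fold change of 0.54 ± 0.101 (SE, edgeR adjusted p = 0.000264), at 6.12 to 8.04 CPM at day 8 and 4.37 to 5.35 CPM at day 0.

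Kcnk3 encodes TASK1, an acid-inhibited channel. Its levels were 5.84, 6.14, 9.31, 8.25 and 8.39 CPM in the day 8 libraries and 3.79 (lowest), 4.67 (median) and 5.32 CPM (highest) at day 0. The ages did not overlap (log2 fold change 0.71 ± 0.138, SE, edgeR adjusted p = 0.000389), and the 3 highest libraries are those with high fat markers. Without these 3 libraries the log2 fold change was 0.37 and the call was lost (edgeR adjusted p = 0.0830). The exons of Kcnk3 overlap Gm9899 on the opposite strand, which was called higher too (1.03 CPM at day 8 and 0.525 CPM at day 0, edgeR adjusted p = 0.00354). Kcnk10, which encodes TREK2, was the member with the lowest log2 fold change and among the scarcest tested: 8 estimated counts in all over the day 8 libraries, 2 of which had 0, against 72 over the day 0 libraries (log2 fold change -2.97 ± 0.550, SE, edgeR adjusted p = 0.000247). Without day 0 library 1, 2, 3, 5 or 6 it fell below the filter on low counts.

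Voltage-gated subunits split. Of 34 members, 24 were tested, 11 rose (45.8%, against 27.5% of all tested genes), 6 fell (25.0%, against 30.1%) and 7 were not called. The median log2 fold change of those tested was 0.26. Kcnd2 (Kv4.2) and Kcnd3 (Kv4.3), which carry fast-inactivating A-type current in heart and brain, both rose. Kcnd3 (chromosome 3, 105452330 to 105674002, + strand) was at 127, 119, 126, 137 and 132 CPM in the day 8 libraries and 59.1 (lowest), 66.7 (median) and 69.7 CPM (highest) at day 0 (log2 fold change 0.96 ± 0.0472, SE, edgeR adjusted p = 1.63e-10). Its antisense RNA Kcnd3os, whose exons overlap those of Kcnd3, was called higher too (day 8 mean 1.93 CPM, day 0 mean 0.770 CPM, edgeR adjusted p = 1.36e-05). Reads of these 2 genes cannot be told apart if counting ignored the strand. Kcnd2 (chromosome 6, 21215503 to 21729805, + strand) was at 28.7, 28.6, 28.7, 32.2 and 25.7 CPM at day 8 and 6.71 (lowest), 9.54 (median) and 10.65 CPM (highest) at day 0 (log2 fold change 1.68 ± 0.10, SE, edgeR adjusted p = 1.32e-09). Neither overlapped between the ages. Kcnd3 stayed the more abundant of the pair, but its TPM ratio to Kcnd2 was 3.69 to 4.57 at day 8 and 5.61 to 8.55 at day 0, without overlap. The third Kv4 gene, Kcnd1, was not called (3.37 ± 0.349 CPM at day 8 and 4.02 ± 0.459 CPM at day 0, edgeR adjusted p = 0.0843).

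The proteins that assemble with Kv4 pores did not move as a block. Kcnip2 (chromosome 19, 45791839 to 45816061, - strand) encodes KChIP2, a calcium-binding subunit that brings Kv4 channels to the surface. It was at 5.54, 5.16, 5.53, 7.33 and 5.05 CPM in the day 8 libraries and 0.991 (lowest), 1.40 (median) and 2.18 CPM (highest) at day 0, a log2 fold change of 1.94 ± 0.182 (SE, edgeR adjusted p = 2.15e-07) with the ages far apart. Kcnip1 rose as well (log2 fold change 0.91 ± 0.277, SE, edgeR adjusted p = 0.0125) with overlapping ages, and Kcnip3 and Kcnip4 were not called. In contrast, the other Kv4 partners Dpp6 and Dpp10, membrane proteins related to dipeptidyl peptidases, fell. Dpp6 stood at 3.99, 5.90, 3.56, 5.71 and 5.36 CPM in the day 8 libraries and 12.9 to 14.9 CPM at day 0 (log2 fold change -1.53 ± 0.120, SE, edgeR adjusted p = 2.81e-08). Dpp10 averaged 0.230 ± 0.0914 CPM at day 8 and 1.75 ± 0.360 CPM at day 0 (log2 fold change -2.89 ± 0.268, SE, edgeR adjusted p = 1.90e-07).

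**Figure D4:**
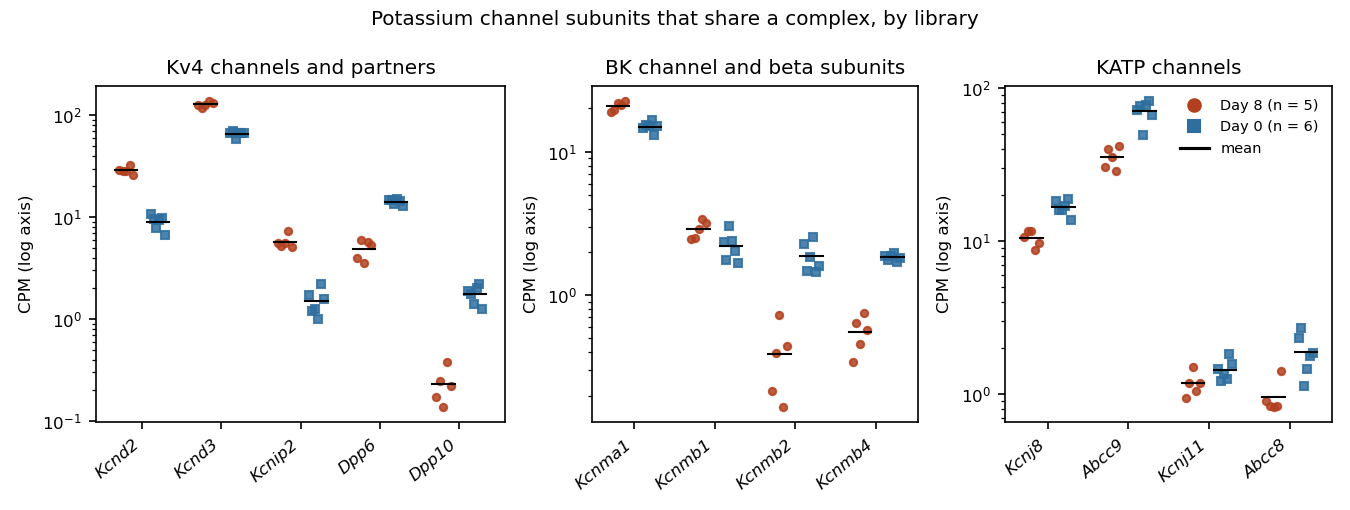
CPM in each library (y axis, log scale) for subunits that share a complex (x axis), day 8 as circles left of day 0 as squares, black lines for means. Kcnd2, Kcnd3 and Kcnip2 lie higher and Dpp6 and Dpp10 lower at day 8, Kcnma1 lies higher and Kcnmb2 and Kcnmb4 lower, and Kcnj8 and Abcc9 both lie lower.

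Kv2 channels are joined by silent subunits, of which 4 of the 6 tested rose (27.5% of all tested genes did). The pore Kcnb2 (Kv2.2) stood at 34.6, 30.7, 32.0, 35.3 and 33.5 CPM in the day 8 libraries and at 15.6 (lowest), 17.4 (median) and 19.7 CPM (highest) at day 0. Its ages lay apart (log2 fold change 0.92 ± 0.0652, SE, edgeR adjusted p = 8.77e-09). Silent subunits form no channel alone and modify Kv2. Of those tested, Kcnv2, Kcng1, Kcng3 and Kcnf1 rose, Kcns3 fell and Kcng2 was not called. Kcng3 had overlapping ages, at 2.5 to 5.095 CPM at day 8 and 2.136 to 2.597 CPM at day 0 (edgeR adjusted p = 0.0012). Kcnf1 had overlapping ages (4.47 to 5.53 CPM at day 8 and 3.43 to 4.71 CPM at day 0, log2 fold change 0.36 ± 0.116, SE, edgeR adjusted p = 0.0155). It lost the call without the 3 day 8 libraries high in fat markers (log2 fold change 0.29, edgeR adjusted p = 0.208) and on log2(TPM + 0.1) (limma adjusted p = 0.0528). Kcnv2 (Kv8.2), best known from photoreceptors, had 1.46, 1.08, 1.14, 1.21 and 1.36 CPM at day 8 and 0.229 (lowest), 0.451 (median) and 0.657 CPM (highest) at day 0. The ages did not overlap (log2 fold change 1.51 ± 0.234, SE, edgeR adjusted p = 4.51e-05). Kcns3 averaged 5.81 ± 0.696 CPM at day 8 and 7.52 ± 1.31 CPM at day 0, overlapping (log2 fold change -0.37 ± 0.133, SE, edgeR adjusted p = 0.0261). The call of Kcns3 did not hold when day 8 library 2 or 3 or day 0 library 1, 3 or 5 was left out (edgeR adjusted p between 0.0512 and 0.0709). Nor did it hold without the 3 day 8 libraries high in fat markers (log2 fold change -0.40, edgeR adjusted p = 0.105) or on log2(TPM + 1) (limma adjusted p = 0.378).

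The ether-a-go-go (Kcnh) and fast-spiking (Kcnc) groups together held falls, rises and members that were not called. Kcnh7 (ERG3), known mainly from the nervous system, was at 1.89, 1.38, 0.457, 1.13 and 0.747 CPM in the day 8 libraries and 4.94 (lowest), 5.36 (median) and 5.71 CPM (highest) at day 0. The ages lay far apart (log2 fold change -2.26 ± 0.242, SE, edgeR adjusted p = 1.08e-06). Its exons overlap those of Gca on the opposite strand, which was not called (35.8 CPM at day 8 and 39.9 CPM at day 0). Kcnh1 (EAG1) was at 4.12, 3.59, 2.92, 2.92 and 3.82 CPM at day 8 and 5.92 (lowest), 6.26 (median) and 9.48 CPM (highest) at day 0, again apart (log2 fold change -0.99 ± 0.148, SE, edgeR adjusted p = 3.21e-05). Kcnh8 (ELK1) fell with a log2 fold change of -0.79 ± 0.233 (SE, edgeR adjusted p = 0.00870) and Kcnh3 (ELK2) rose with 0.96 ± 0.219 (SE, edgeR adjusted p = 0.00145). Without the 3 day 8 libraries high in fat markers, both lost their calls (log2 fold changes -0.76 for Kcnh8 and 0.64 for Kcnh3, edgeR adjusted p = 0.115 for each). Kcnh8, which averaged 0.470 ± 0.0629 CPM at day 8, against 0.821 ± 0.192 CPM at day 0, was not tested under the CPM filter. Kcnh2 (ERG1), the family's most abundant member at 7.13 ± 0.974 TPM at day 8 and 6.27 ± 1.31 TPM at day 0, was not called (log2 fold change -0.06 ± 0.0749, SE, edgeR adjusted p = 0.544). In the Kv3 group of fast-spiking neurons, Kcnc2 fell with the ages apart (log2 fold change -0.88 ± 0.102, SE, edgeR adjusted p = 2.49e-06).

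Of the Kv1 genes, Kcna6 rose and Kcna2 fell. Kcna2 (Kv1.2), a channel of axons, was at 0.902, 0.688, 0.959, 0.667 and 0.439 CPM in the day 8 libraries and 1.095 (lowest), 1.44 (median) and 1.51 CPM (highest) at day 0, a log2 fold change of -0.90 ± 0.211 (SE, edgeR adjusted p = 0.00171) with the ages apart. Kcna6 (Kv1.6) averaged 10.1 ± 0.748 CPM at day 8 and 6.46 ± 0.798 CPM at day 0 (log2 fold change 0.64 ± 0.0960, SE, edgeR adjusted p = 3.60e-05). Kcna1 (Kv1.1), which in the distal convoluted tubule supports magnesium uptake, averaged 0.624 ± 0.133 CPM at day 8 and 0.452 ± 0.199 CPM at day 0 and was not called (edgeR adjusted p = 0.201). Kcna3 and Kcna5 were not called either. Neuronal markers stood at 0.957 to 1.46 TPM summed over 7 genes at day 8 and at 1.39 to 4.39 TPM at day 0, with the ages overlapping. Of these 7, 1 was tested and fell, and the part of nerve cells in the falls of Kcnh7, Kcnh1, Kcna2 and Dpp6 was not tested.

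Of 5 Kcnq genes, 4 were tested. Of those, 2 rose (27.5% of all tested genes did), 1 fell (30.1% of all tested genes did) and 1 was not called. The median of the tested Kcnq genes was 0.06 on the log2 fold scale. Kcnq1 encodes the slow channel of heart and epithelia that pairs with Kcne subunits. It was at 21.1, 25.1, 24.9, 25.9 and 22.4 CPM in the day 8 libraries and 14.7 (lowest), 17.2 (median) and 19.2 CPM (highest) at day 0, with no overlap (log2 fold change 0.49 ± 0.0812, SE, edgeR adjusted p = 8.54e-05). Its exons overlap an antisense RNA that was far more abundant, averaging 394.5 ± 64.5 CPM at day 8 and 453.3 ± 85.9 CPM at day 0, and that was not called. Reads of the pair cannot be told apart if counting ignored the strand. Kcnq3 and Kcnq5, which form the M-type channel of neurons, went opposite ways. Kcnq3 was at 4.81, 5.16, 4.06, 3.67 and 4.26 CPM at day 8 and 1.09 (lowest), 1.93 (median) and 2.68 CPM (highest) at day 0 (log2 fold change 1.19 ± 0.183, SE, edgeR adjusted p = 4.10e-05). Kcnq5 was at 0.515, 0.885, 1.37, 0.583 and 0.835 CPM at day 8 and 2.52 (lowest), 2.80 (median) and 3.34 CPM (highest) at day 0 (log2 fold change -1.76 ± 0.218, SE, edgeR adjusted p = 4.64e-06). Neither gene overlapped between the ages.

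Kcne1, a partner of Kcnq1, moved with it. Its log2 fold change was 0.58 ± 0.119 (SE, edgeR adjusted p = 0.000573), at 9.22 to 12.8 CPM at day 8 and 5.53 to 9.29 CPM at day 0, ranges that overlap slightly. The TPM ratio of Kcnq1 to Kcne1 was 1.21 to 1.55 at day 8 and 1.21 to 1.69 at day 0, so the ranges almost coincide. Kcne1l, another small subunit of the family, was the accessory member with the highest TPM. It was at 19.1, 23.0, 16.6, 23.8 and 19.2 CPM in the day 8 libraries and 6.10 (lowest), 10.2 (median) and 12.6 CPM (highest) at day 0. The ages lay apart (log2 fold change 0.99 ± 0.159, SE, edgeR adjusted p = 0.000153). Kcne3, which keeps Kcnq1 open in epithelia, was called lower with overlapping ages, averaging 0.597 ± 0.218 CPM at day 8 and 0.961 ± 0.290 CPM at day 0 (log2 fold change -0.67 ± 0.277, SE, edgeR adjusted p = 0.0481), and lost the call in 17 of 20 other settings. Kcne4 was not called.

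Of 8 Kcnm/Kcnn members, 7 were tested, 2 rose (28.6%, against 27.5% of all tested genes), 2 fell (28.6%, against 30.1%) and 3 were not called. Both shares are near those of all tested genes. The median log2 fold change of those tested was -0.04. Kcnn4 (chromosome 7, 24370263 to 24386690, + strand) encodes KCa3.1, the intermediate-conductance channel of blood cells and epithelia. It was at 0.472, 0.590, 0.320, 0.417 and 0.395 CPM in the day 8 libraries and 2.595 (lowest), 3.67 (median) and 3.90 CPM (highest) at day 0. The ages were far apart (log2 fold change -2.96 ± 0.195, SE, edgeR adjusted p = 4.26e-09), which is 7.78-fold lower at day 8. Kcnn1 (SK1) was at 2.02, 3.49, 3.74, 3.12 and 3.34 CPM at day 8 and 5.45 (lowest), 6.17 (median) and 7.44 CPM (highest) at day 0, also apart (log2 fold change -1.01 ± 0.152, SE, edgeR adjusted p = 3.41e-05). Its exons overlap A230052G05Rik on the opposite strand, which was called lower too (day 8 mean 0.224 CPM, day 0 mean 0.996 CPM, edgeR adjusted p = 0.00043). Of the blood cell markers, 4 red blood cell markers were tested and not called, 2 of 4 T cell markers and 2 of 3 macrophage markers were called higher, and the part of these cells in the fall of Kcnn4 was not tested. Kcnn2 and Kcnn3 were not called.

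Kcnt1 (chromosome 2, 25863734 to 25918273, + strand), a sodium-activated channel, was the member with the highest log2 fold change. It was at 2.36, 3.19, 3.74, 3.12 and 4.22 CPM in the day 8 libraries and 0.549 (lowest), 0.722 (median) and 1.26 CPM (highest) at day 0, with no overlap (log2 fold change 2.08 ± 0.218, SE, edgeR adjusted p = 7.78e-07). Its relative Kcnt2 was more abundant, at 4.68 ± 0.711 TPM at day 8 and 4.42 ± 0.652 TPM at day 0, and was not called (log2 fold change -0.04 ± 0.0696, SE, edgeR adjusted p = 0.614).

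The pore of the large-conductance (BK) channel rose, and 2 of its 3 tested beta subunits fell. Kcnma1 (chromosome 14, 23289431 to 24014491, - strand), the pore, which secretes potassium in the distal nephron and relaxes vessels, was at 19.0, 19.5, 21.9, 21.1 and 22.4 CPM in the day 8 libraries and 12.98 (lowest), 15.1 (median) and 16.6 CPM (highest) at day 0 (log2 fold change 0.48 ± 0.0695, SE, edgeR adjusted p = 2.44e-05). The ages were apart. Kcnmb4, the beta subunit of neurons and of the distal nephron, was at 0.344, 0.639, 0.457, 0.750 and 0.571 CPM at day 8 and 1.71 (lowest), 1.85 (median) and 1.98 CPM (highest) at day 0 (log2 fold change -1.72 ± 0.200, SE, edgeR adjusted p = 2.31e-06). Kcnmb2, an inactivating beta subunit, was at 0.215, 0.393, 0.731, 0.167 and 0.439 CPM at day 8 and 1.45 (lowest), 1.72 (median) and 2.56 CPM (highest) at day 0 (log2 fold change -2.26 ± 0.310, SE, edgeR adjusted p = 1.34e-05). Both beta subunits had every day 8 library below every day 0 library. Kcnmb1, the beta subunit of smooth muscle, averaged 2.88 ± 0.417 CPM at day 8 and 2.20 ± 0.494 CPM at day 0. Its ages overlapped and it was not called (log2 fold change 0.39 ± 0.170, SE, edgeR adjusted p = 0.0608). The TPM ratio of Kcnma1 to Kcnmb4 was 4.93 to 18.1 in day 8 libraries and 1.76 to 2.68 in day 0 libraries, without overlap.

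Over all accessory subunits, 15 of 17 were tested, 5 rose (33.3%, against 27.5% of all tested genes), 4 fell (26.7%, against 30.1%) and 6 were not called. Both shares are near those of all tested genes. The median log2 fold change of those tested was -0.03. Without the 3 day 8 libraries high in fat markers, 3 rose, and Kcnip1, Kcnab1 and Kcne3 lost their calls (edgeR adjusted p = 0.0725, 0.197 and 0.0821). Their log2 fold changes there were 0.88, 0.34 and -0.85. The cytosolic Kv1 beta subunits moved apart: Kcnab2 fell (log2 fold change -0.64 ± 0.122, SE, edgeR adjusted p = 0.000316) with the CPM of the ages apart, and Kcnab1 rose (log2 fold change 0.37 ± 0.140, SE, edgeR adjusted p = 0.0328) with overlap. Kcnab1 lost its call without day 8 library 2, 3 or 5 or day 0 library 1, 2, 3 or 5 (edgeR adjusted p between 0.0558 and 0.0818). On log2(TPM + 1), Kcnab2 was not called (log2 fold change -0.28, limma adjusted p = 0.0542), and its TPM overlapped at 1.13 to 1.83 at day 8 and 1.72 to 2.18 at day 0. Kcnab3 and Kcnrg were not called.

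**Figure D5:**
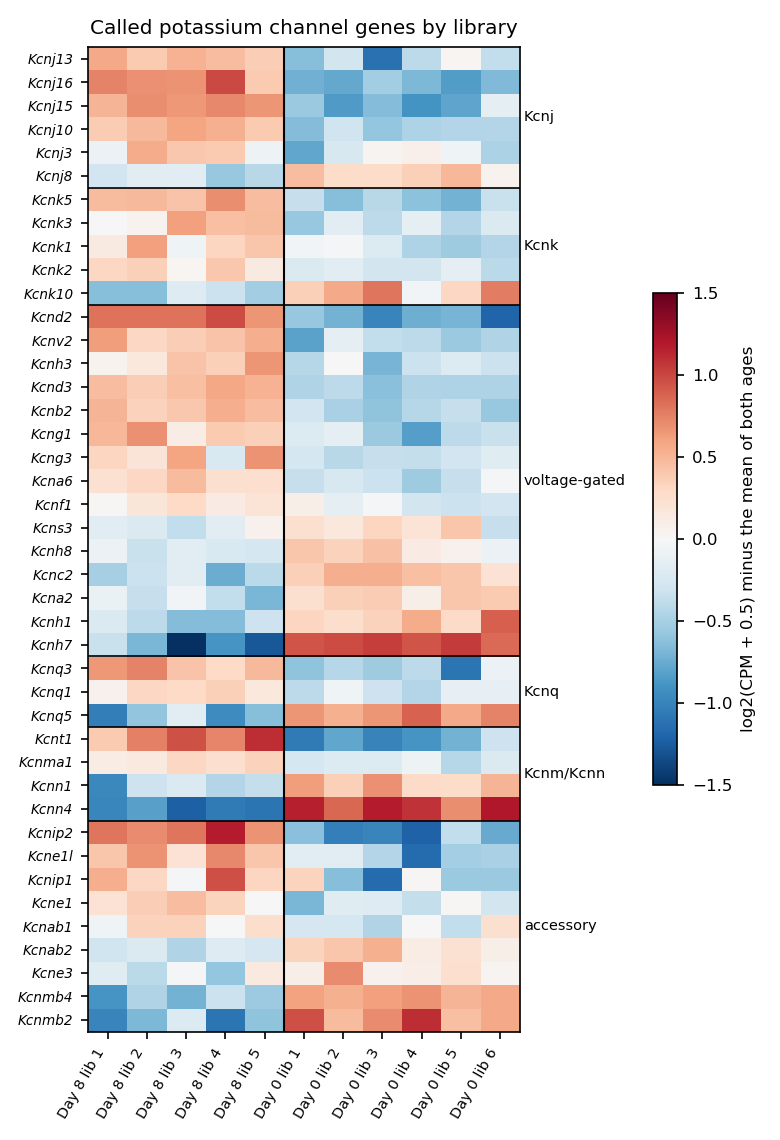
Called members (42 shown; y axis, by class) in each library (x axis, day 8 left of the line), coloured by log2(CPM + 0.5) minus the mean of both age means. Most members have 1 colour per age; Kcnj3, Kcnk1, Kcnip1, Kcnab1, Kcne3 and Kcns3 are among those with mixed colours within an age.

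The 25 members not tested included Kcnj4, Kcnj6 and Kcnj9; Kcnk4, Kcnk7, Kcnk9, Kcnk12, Kcnk13, Kcnk15, Kcnk16 and Kcnk18; Kcna4, Kcna7, Kcnc1, Kcnc4, Kcng4, Kcnh4, Kcnh6, Kcns1, Kcns2 and Kcnv1; and Kcnu1, Kcnmb3 and Kcne2. None exceeded 67 estimated counts summed over the day 8 libraries or 48 over the day 0 libraries. In all, 5 (Kcnj6, Kcnk16, Kcnk18, Kcnh4 and Kcnv1) had 0 counts in every day 8 library and 1 or 2 counts over the day 0 libraries, too few for a comparison, since a count of 0 allows up to 3. Kcns2 had 11 counts over the day 8 libraries and 48 over the day 0 libraries, and Kcnc4 had 8 and 29. These were the only untested members whose CPM ranges lay apart, both lower at day 8.

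Of 23 genes outside the Kcn names whose products join or act beside potassium channels, 20 were tested, with a median log2 fold change of 0.07. Of these, 8 rose (27.5% of all tested genes did), 7 fell (30.1% of all tested genes did) and 5 were not called. The falls included Abcc8, Abcc9, Dpp6, Dpp10, Hcn4 and Slc12a2. Hcn4, a pacemaker channel that also passes potassium, averaged 1.30 ± 0.472 CPM at day 8 and 9.96 ± 2.45 CPM at day 0 (log2 fold change -2.92 ± 0.254, SE, edgeR adjusted p = 3.34e-07). The rises included Lrrc55, Tmem175, Tmem38b, the potassium-chloride cotransporters Slc12a4 and Slc12a7, and the proton-potassium pumps Atp12a and Atp4a. The ages of both pumps overlapped (edgeR adjusted p = 0.0266 for Atp12a and 0.0458 for Atp4a). Slc12a7 (KCC4) averaged 125 ± 9.41 CPM at day 8 and 79.7 ± 9.31 CPM at day 0 (log2 fold change 0.65 ± 0.0733, SE, edgeR adjusted p = 3.05e-06). Lrrc55, a gamma subunit of the BK channel, was at 11.9, 1.62, 1.64, 6.83 and 1.36 CPM in the day 8 libraries and 0.931 to 1.91 CPM at day 0 (log2 fold change 1.95 ± 0.623, SE, edgeR adjusted p = 0.0211), so that day 8 libraries 1 and 4 alone lay above day 0.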

How the data were processed

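Total RNA from kidney was sequenced after ribosomal depletion with a stranded Illumina kit, per the labels' protocols. The deposited tables give estimated counts and TPM per gene. Per the submitters' processing notes, the tools were FastQC, fastp, DRAGEN and Picard, with build mm10; the counting step, its annotation and its use of strand are not given in the sources used here. Of 12 labelled samples, 11 were matched to columns by title, and 1 day 8 sample was not analysed here.

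Estimated counts, as deposited by the authors, were rounded and tested with edgeR 4.0.16 in R 4.3.3 (TMM, filterByExpr, robust quasi-likelihood fit with age as the only term, Benjamini-Hochberg adjustment over 18763 genes, threshold 0.05). SEs are of log2 fold changes; other errors are SDs over libraries. TPM, which the authors had already scaled, gave levels between genes and an alternative fit with limma 3.58.1 on log2(TPM + 1) and log2(TPM + 0.1), for means of at least 1 TPM; such fold changes understate low genes. Other alternatives were DESeq2 1.42.0, limma-voom, RLE or no scaling between libraries, 2 other filters, a threshold of 0.01, each library left out, and the day 8 libraries with over 3 times the lowest fat marker sum of that age left out. The last of these kept only day 8 libraries 1 and 2 and called fewer genes in all (3946 higher and 4143 lower). None of the 25 within-age library pairs looked like a duplicate (chi-square per degree of freedom 4.95 to 45.5). On simulated counts over 18548 genes for day 8 against day 0, the test recovered 60% of genes changed 1.5-fold and 90% at 2-fold. It recovered 98% at 4-fold and 94% at 8-fold (50 genes per fold), and 8 of all 179 calls were false. Simulated rises and falls were balanced and all other genes were left unchanged. In the data, 5162 genes were called higher and 5646 lower. The simulation therefore does not show how the test does where so many genes change.

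Genes named with values are, per class, the 2 with the highest TPM, the 8 highest and 8 lowest fold changes among called members with a mean of at least 0.5 CPM and ages apart, and members with a known role in tubule or renal vessel; others were added as description. Some genes are counted in totals but not reported here by name. The members, classes, partner and marker lists were chosen with earlier results of these data known. Positions are from GENCODE vM21 on GRCm38. Figures used Python 3.11.15, pandas 2.3.3 and matplotlib 3.10.9.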

Additional observations from a re-analysis of the deposited data

Results flagged for a closer look

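Of 66 groups of libraries of the named members (5 day 8 or 6 day 0 libraries each), 4 held a library far from the others, where chance alone marks about 1 in 20 groups. Kcnk5 stood at 52.0 CPM in day 8 library 4, the next being 45.1 CPM. Kcnip2 stood at 7.33 CPM in the same library, the next being 5.54 CPM. Kcnd3 stood at 59.1 CPM in day 0 library 3, below a nearest value of 66.5 CPM. Kcne3 stood at 1.53 CPM in day 0 library 2, above a nearest value of 0.986 CPM. The calls of Kcnk5, Kcnip2 and Kcnd3 held without that library, and the call of Kcne3 was lost (edgeR adjusted p = 0.128).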

How the results depend on the processing

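Over the 21 alternatives, members that rose numbered 22 to 30 (29 as reported) and members that fell 5 to 17 (15 as reported). With each library left out, members that rose numbered 27 to 30 and those that fell 12 to 15; by class, rises ran from 4 to 6 for Kcnj and accessory, and falls from 1 to 2 for Kcnj, 0 to 1 for Kcnk, 5 to 7 for voltage-gated and 3 to 4 for accessory. On both TPM scales 5 members fell: of the 10 falls lost, 7 were of members not tested there and 3 (Kcnab2, Kcne3 and Kcns3) were tested and not called; falls were 1 for voltage-gated, 0 for Kcnk, 0 for Kcnq and 1 for accessory, and rises 3 for Kcnj, 1 for Kcnm/Kcnn and 1 for Kcnq. Falls of Kcnk genes were 2 with no filter and 0 with the CPM filter, which drops Kcnk10. Rises of accessory genes were 3 at a threshold of 0.01 and 3 without the day 8 libraries high in fat markers. The uncalled Kcnh2 and Kcnt2 changed sign on the TPM scales (0.17 and 0.20 for Kcnh2, 0.0665 and 0.0793 for Kcnt2). Kcnmb1 was called with limma-voom (adjusted p = 0.0418), without day 0 library 3 (0.0177) and without day 8 library 1 (0.0451). On log2(TPM + 1), which understates scarce genes, the log2 fold change was -1.35 for Kcnn4 and -0.80 for Kcnmb4, and it was 0.75 for Kcnma1. Scaling by library size alone gave 39.5% rises among all called genes, against 47.8% with TMM and 68.7% on log2(TPM + 1). Members under about 1 CPM rest on few counts. No paired analysis was made, because the labels state no litter or other link between day 0 and day 8 libraries. Library numbers shared by the ages are counts within each age and do not mark pairs.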
